A study of Mus musculus with 7 samples.

Results

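Complement is the protein cascade that tags cells, debris and synapses for removal. The 8 genes described here are C1qa, C1qb, C1qc, C3, C4b, C3ar1, C5ar1 and Cd59a. They were chosen by symbol, with earlier results of the same comparison known, from the 21965 genes of a count table of mouse hippocampus. C1q, built from 3 kinds of chain, recognises the target and starts the classical pathway. Cleavage of C4 and C3 then deposits tags on the target, and the released fragments C3a and C5a act through the receptors C3ar1 and C5ar1. CD59 blocks the membrane attack complex at the end of the cascade. In the brain the C1q chains come mainly from microglia, the resident macrophages, and C1q and C3 are known to mark synapses for uptake by them.

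The tissue came from 4 samples in which noise had induced hidden hearing loss (NIHHL), the mice being exposed to 110 dB noise for 2 h, and from 3 samples of blank controls (Control). Hidden hearing loss is damage to the synapses of the inner ear that leaves hearing thresholds largely normal, and the study asked which hippocampal genes go with the memory impairment of such mice. Hippocampus was collected 1 month after induction, and polyadenylated RNA was sequenced. Strain, age and sex were not given in the sources used here. Whether the libraries come from separate animals is not stated, so the spread that the p-values rest on may be technical.

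The total count per library was 16982198 to 21585789 in NIHHL and 14871367 to 24515138 in Control. Levels are CPM, read counts scaled to library size, with TMM factors between libraries. Genes that mark hippocampal neurons were well detected: Prox1, of dentate granule cells, stood at 107.5 to 165.9 CPM in NIHHL and 101.2 to 145.5 CPM in Control, and Wfs1, of CA1 pyramidal cells, at 98.4 to 123.7 CPM in NIHHL and 65.7 to 130.7 CPM in Control. The microglia markers P2ry12, Tmem119 and Cx3cr1 averaged 48.1, 26.2 and 56.9 CPM in NIHHL and 49.9, 26.4 and 52.1 CPM in Control. Markers of choroid plexus, the tissue that secretes cerebrospinal fluid, varied most, from 687 to 8922 CPM summed over 14 genes in NIHHL and from 211 to 7280 CPM in Control.

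The genes lie at 6 loci. Positions were matched by gene identifier to the GENCODE M21 annotation of GRCm38, since no build is stated for the counts. C1qa, C1qc and C1qb sit next to each other on the minus strand of chromosome 4, at 136895917 to 136898803, 136889804 to 136893065 and 136880129 to 136886187. C3 lies at 57203970 to 57228136 and C4b at 34728380 to 34743882, both on the minus strand of chromosome 17. C3ar1 is on chromosome 6 (122847138 to 122856161), C5ar1 on chromosome 7 (16246743 to 16259540) and Cd59a on chromosome 2 (104095801 to 104115354). None of the 8 shared exon bases with another annotated gene. C4b and Cd59a carried decimal counts, and each has a near copy (C4a and Cd59b) with which reads can be divided, so their levels are less certain than the whole-number counts of the other 6.

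RefSeq promoter entries (GRCm38.p6) matched 6 of the 8 genes by symbol, not C1qa and C4b. The sequences before the start sites of C1qb and C1qc are shown because these neighbouring genes had similar CPM, and that of C3 because it was the gene among the 8 whose groups did not overlap. All are 5′ to 3′ on the minus strand, and only bases outside the annotated gene are printed; distances below are from the RefSeq start. Capitals mark GAGGAA, an ETS-type core of the kind bound by the myeloid factor PU.1, in C1qb and C1qc, and TTNNGNAA, a C/EBP-type motif, in C3. In C1qc the match lies on the other strand, so the printed capitals read TTCCTC.
C1qb, chr4:136886201-136886450: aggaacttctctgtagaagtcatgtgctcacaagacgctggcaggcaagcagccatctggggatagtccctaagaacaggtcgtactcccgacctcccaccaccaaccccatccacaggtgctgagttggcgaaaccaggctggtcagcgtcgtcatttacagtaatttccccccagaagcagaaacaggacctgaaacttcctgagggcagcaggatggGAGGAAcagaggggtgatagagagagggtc
C1qc, chr4:136893066-136893164: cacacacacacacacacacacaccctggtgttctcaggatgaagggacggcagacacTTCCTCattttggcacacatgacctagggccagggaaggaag
C3, chr17:57228137-57228386: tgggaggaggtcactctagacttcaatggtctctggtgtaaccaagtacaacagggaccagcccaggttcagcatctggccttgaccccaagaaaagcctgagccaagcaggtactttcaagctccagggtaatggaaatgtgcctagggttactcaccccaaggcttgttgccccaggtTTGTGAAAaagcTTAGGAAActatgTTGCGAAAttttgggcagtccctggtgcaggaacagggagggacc

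Both motifs were searched on both strands in the 250 bases before each start site, and no 2 matched places in the 6 windows overlapped. In C3, TTGCGAAA fits TTNNGNAA on both strands and was counted as a single place. GAGGAA was found once each in C1qb, C1qc and Cd59a, with its near edge 25, 188 and 57 bases before the start, and it occurs in 23.3% of 32851 RefSeq windows of that length. TTNNGNAA matched 3 places in C3, with near edges 38, 51 and 63 bases before the start, and single places in C1qc and C5ar1. At least 1 match occurs in 36.8% of all windows and at least 3 matches in 2.61%. These matches describe letters in the windows and are not evidence of binding.

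The order of transcript levels was read per kilobase of exon, since the genes differ in length from 1040 bases for C1qa to 5695 for C4b. C1qa led with 44.5 ± 2.72 CPM per kilobase in NIHHL and 40.9 ± 2.57 in Control, and C1qb followed with 43.1 ± 4.78 in NIHHL and 39.4 ± 4.05 in Control (mean ± SD, n = 4 and 3). C1qc was at 25.3 ± 2.28 CPM per kilobase in NIHHL and 24.6 ± 2.91 in Control. C1qa and C1qb overlapped in their ranges, and both lay above C1qc in all 7 libraries.

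C4b stood at 5.70 ± 0.567 CPM per kilobase in NIHHL and 4.82 ± 0.753 in Control, overlapping Cd59a at 5.87 ± 3.02 in NIHHL and 4.27 ± 3.24 in Control. C3ar1 was at 0.737 ± 0.0966 CPM per kilobase in NIHHL and 0.638 ± 0.0451 in Control, and C3 at 0.840 ± 0.393 in NIHHL and 0.404 ± 0.0878 in Control. C5ar1 was lowest, with 0.200 ± 0.108 CPM per kilobase in NIHHL and 0.172 ± 0.0351 in Control. Per kilobase, C1qa lay above 93.4% of the 14393 tested genes with a length, C4b above 52.9% and C3 above 12.7%. The hippocampus thus held abundant C1q transcripts and few transcripts of C3 and the 2 receptors in both groups.

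**Figure D1:**
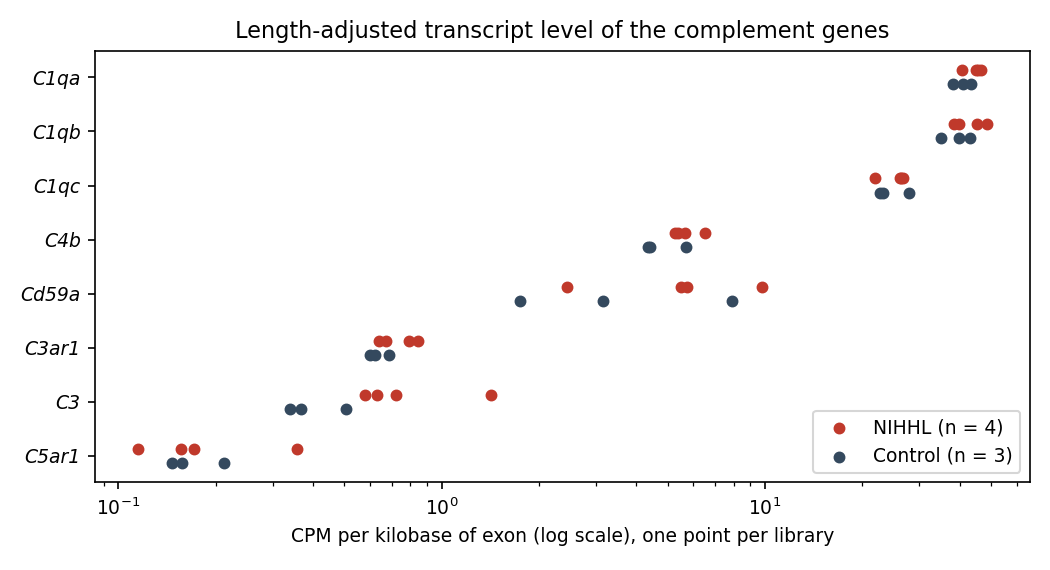
Transcript level of each of the 8 complement genes per kilobase of exon (x axis, CPM per kilobase, log scale), with a point per library for 4 NIHHL and 3 Control libraries. The C1q chains lie at 21.9 CPM per kilobase or above in every library, C4b and Cd59a between 1.75 and 9.81, and C3, C3ar1 and C5ar1 at 1.42 or below.

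NIHHL was set against Control with edgeR's quasi-likelihood test over 14417 genes that passed a filter on low counts. Of the 8 genes, 7 passed the filter and C5ar1 did not. None of the 7 was called at an adjusted p under 0.05, and neither was any other gene (0.0% of those tested). An unadjusted p under 0.05 was found for 523 genes, 3.63%. By limma-voom 0 genes were called (0.0%). DESeq2's Wald test called 4 of 18177 genes (0.022%), none of them a complement gene, and gave 2.46% an unadjusted p under 0.05. Because the genes were picked with this comparison known, their fold changes are given as a description without p-values. All 7 had a log2 fold change above 0, as did 49.9% of all genes tested, with a median of 0.21 beside -0.00045 over all genes.

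C3, the central component whose cleavage all complement pathways share, was the one gene of the 8 whose groups did not overlap. Its level was 3.73, 2.99, 3.25 and 7.31 CPM in NIHHL replicates 1 to 4, against 1.75, 1.89 and 2.59 CPM in Control replicates 1 to 3. NIHHL was the higher, and its replicate 4 stood well apart from the other 3. The deposited counts behind these levels were 81, 52, 59 and 124 in NIHHL and 26, 45 and 55 in Control.

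The mean of C3 was 2.08 times as high in NIHHL, with a log2 fold change of 1.04 (SE 0.33). Without NIHHL replicate 4 the log2 fold change was 0.67, and without both that library and Control replicate 2 it was 0.60. NIHHL above Control without overlap was seen in 409 genes, 2.84% of those tested, and among the 7 it was seen in C3 alone; since this comparison helped to choose C3, nothing is read from that count. Microglia markers summed to 619 CPM in NIHHL replicate 4, the lowest of the 7 libraries, against 682 to 788 CPM in the other 3 NIHHL libraries and 678 to 732 CPM in Control. In this bulk tissue, fewer cells of a type and less RNA per cell cannot be told apart.

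The 3 C1q chains differed little between groups. C1qa was at 46.9, 48.6, 47.5 and 42.2 CPM in NIHHL against 39.7, 42.8 and 45.0 CPM in Control, and 3 of the 4 NIHHL libraries lay above all Control libraries. C1qb was at 43.2, 53.0, 49.3 and 41.9 CPM in NIHHL against 38.2, 47.0 and 43.5 CPM in Control. C1qc was at 51.7, 50.8, 50.6 and 42.3 CPM in NIHHL against 44.8, 54.0 and 43.9 CPM in Control. The groups overlapped for each chain, and NIHHL replicate 4 was the lowest NIHHL library for all 3.

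The log2 fold changes were 0.12 for C1qa (SE 0.08), 0.12 for C1qb (SE 0.10) and 0.04 for C1qc (SE 0.10). That of C1qc was -0.02 without Control replicate 3, so its sign rested on which libraries were used. Of the per-kilobase signal of the 3 chains together, C1qa made up 38.4% to 40.4% in NIHHL and 36.6% to 40.9% in Control, and C1qc 21.6% to 24.0% in NIHHL and 21.5% to 24.9% in Control. The chains thus kept nearly the same proportions in all 7 libraries.

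The summed CPM of the 3 chains was 126.4 to 152.3 in NIHHL and 122.7 to 143.8 in Control. For every 100 CPM of the 16 microglia markers there were 20.8, 19.3, 19.8 and 20.4 CPM of C1q in NIHHL and 16.8, 20.95 and 19.5 CPM in Control. Control replicate 1 was the lowest, and the other 6 libraries lay within 19.3 and 20.95. Of the 16 markers 9 had a log2 fold change above 0, with a median of 0.04, and none was at 0 counts in all libraries. On the log2 scale Pearson's r with their sum was 0.431 for C1qa, 0.539 for C1qb and 0.467 for C1qc. Without NIHHL replicates 2 and 4, the libraries farthest from the median of the sum, it was -0.145, 0.0118 and -0.108. With ependymal markers r was 0.816, 0.749 and 0.556. None of these pairs passed after adjustment (exact permutation tests).

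**Figure D2:**
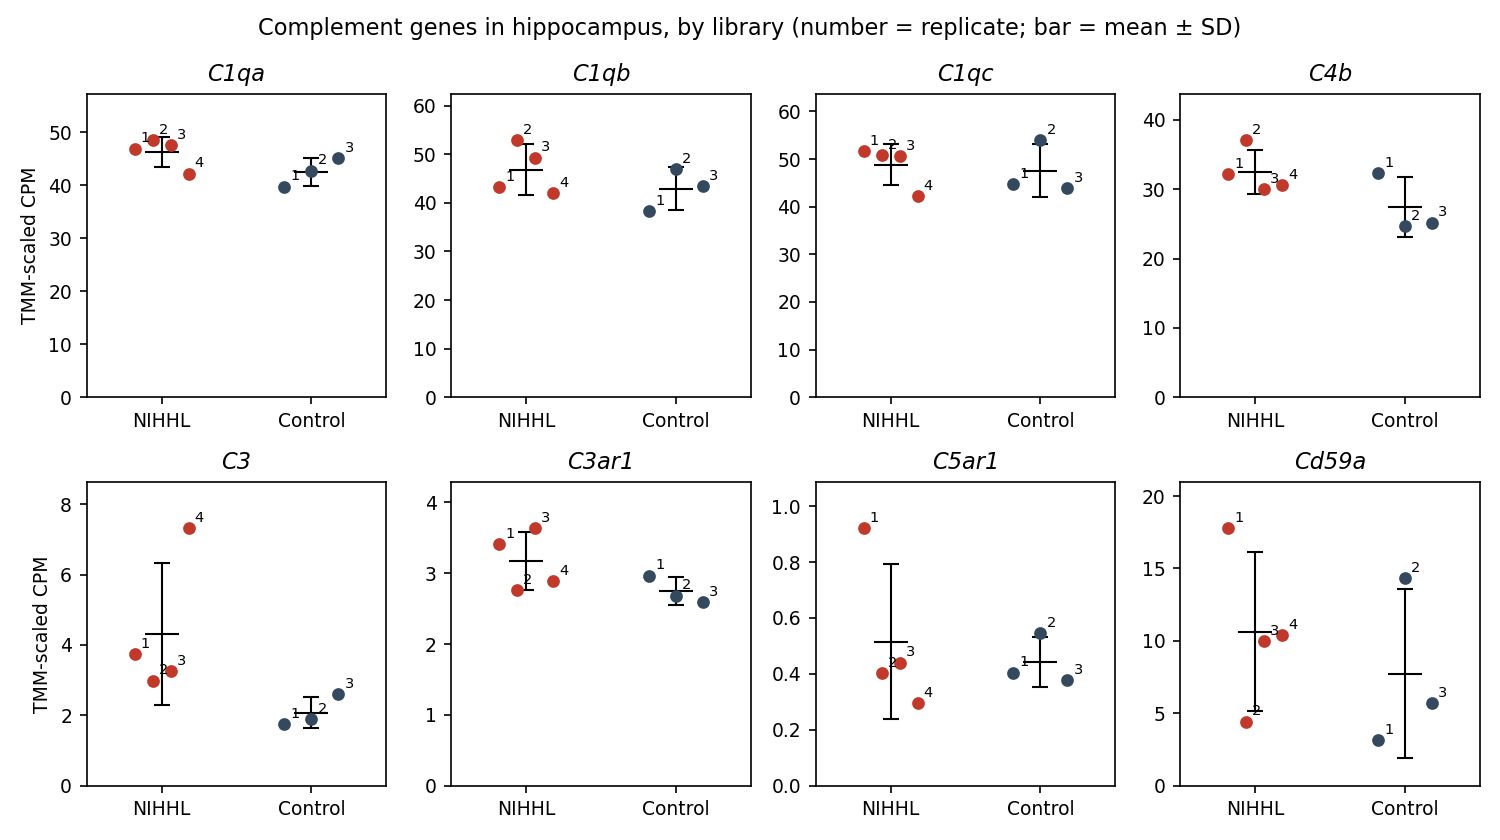
Level of each of the 8 complement genes (y axis, TMM-scaled CPM, starting at 0) in 4 NIHHL and 3 Control libraries, with points numbered by replicate and the mean ± SD as bars. C3 is at 2.99 CPM or above in NIHHL and 2.59 or below in Control, and the groups overlap for the other 7 genes.

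C4b, which encodes the C4 protein cleaved once C1q has bound, was at 32.2, 37.1, 30.1 and 30.6 CPM in NIHHL against 32.4, 24.7 and 25.2 CPM in Control. NIHHL replicate 2 was the highest library, and Control replicate 1 lay within the NIHHL range while the other 2 Control libraries lay below it. The log2 fold change was 0.25 (SE 0.11), 0.38 without Control replicate 1 and 0.18 without NIHHL replicate 2. Its near copy C4a was at 0.290 ± 0.200 CPM in NIHHL and 0.415 ± 0.230 CPM in Control (mean ± SD), far below C4b in every library.

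Of the receptors, C3ar1, which binds C3a, was at 3.41, 2.76, 3.63 and 2.89 CPM in NIHHL against 2.97, 2.69 and 2.59 CPM in Control. Replicates 2 and 4 of NIHHL fell within the Control range and the other 2 lay above it. The log2 fold change was 0.21 (SE 0.18). C5ar1, the receptor of C5a, had only 20, 7, 8 and 5 deposited counts in NIHHL and 6, 13 and 8 in Control, or 0.920, 0.402, 0.441 and 0.295 CPM in NIHHL against 0.405, 0.545 and 0.377 CPM in Control. NIHHL replicate 1 was the highest and NIHHL replicate 4 the lowest of the 7, so the groups overlapped.

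Cd59a, the inhibitor of the membrane attack complex, varied more between libraries of a group than between groups. It was at 17.8, 4.43, 9.97 and 10.4 CPM in NIHHL against 3.17, 14.4 and 5.71 CPM in Control. High and low libraries occurred in both groups. The log2 fold change was 0.43 with a large SE of 0.65; it was 0.06 without NIHHL replicate 1, 0.09 without Control replicate 1, 0.25 without Control replicate 3, 0.69 without NIHHL replicate 2 and 1.25 without Control replicate 2.

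The level of Cd59a followed the choroid plexus markers from library to library. The 14 markers summed to 8922, 687, 4890 and 4597 CPM in NIHHL replicates 1 to 4, against 211, 7280 and 1590 CPM in Control replicates 1 to 3, so that NIHHL replicate 1 and Control replicate 2 were highest and Control replicate 1 and NIHHL replicate 2 lowest in both measures. Over the 7 libraries Pearson's r on the log2 scale was 0.976 and Spearman's rho 0.964, with p = 0.000397 and 0.00278 by exact two-sided permutation tests. After adjustment over the 42 pairs of a gene and a marker list that were computed, these were 0.0167 and 0.0583. The lists paired were those of choroid plexus, microglia, astrocytes, ependymal cells, meningeal fibroblasts and endothelium. Other marker lists were not paired, and the adjustment does not cover them. Without the 2 libraries farthest from the median of the markers, Control replicate 1 and NIHHL replicate 2, r was 0.984. This relation was looked at after the values of Cd59a were seen.

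Markers of meningeal fibroblasts, cells of the membranes around the brain, gave a like relation with Cd59a, with r = 0.925 and rho = 0.964 (p = 0.000794 and 0.00278, adjusted p = 0.0167 and 0.0583, exact permutation tests), and r = 0.958 without NIHHL replicate 1 and Control replicate 1. They summed to 192 to 406 CPM in NIHHL and 153 to 264 CPM in Control, with 9 of 11 above 0 in log2 fold change. Their sums ranked the libraries in the same order as the choroid plexus sums, so the equal rho is not a separate result. Single fibroblast markers differed. Lum was highest in Control replicate 2 (9.82 CPM) and NIHHL replicate 1 (9.11 CPM). Col1a1 was highest in NIHHL replicate 2 (10.06 CPM) and lowest in Control replicate 2 (2.85 CPM), unlike Cd59a. All 14 choroid plexus markers had a log2 fold change above 0, with a median of 0.71, and no marker of either list was at 0 in all libraries. The part of these tissues in the group difference of Cd59a was not tested. No other pair passed after adjustment by either measure. For C3 and the choroid plexus markers r was 0.446 and rho 0.464 (p = 0.325 and 0.302, adjusted p = 0.593 and 0.605, exact permutation tests), with r = 0.0577 without the same 2 libraries as for Cd59a. With the other lists paired, r of C3 ran from -0.562 (endothelial) and -0.54 (microglia) to 0.493 (ependymal). The part of any of these cells in the level of C3 was not tested.

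**Figure D3:**
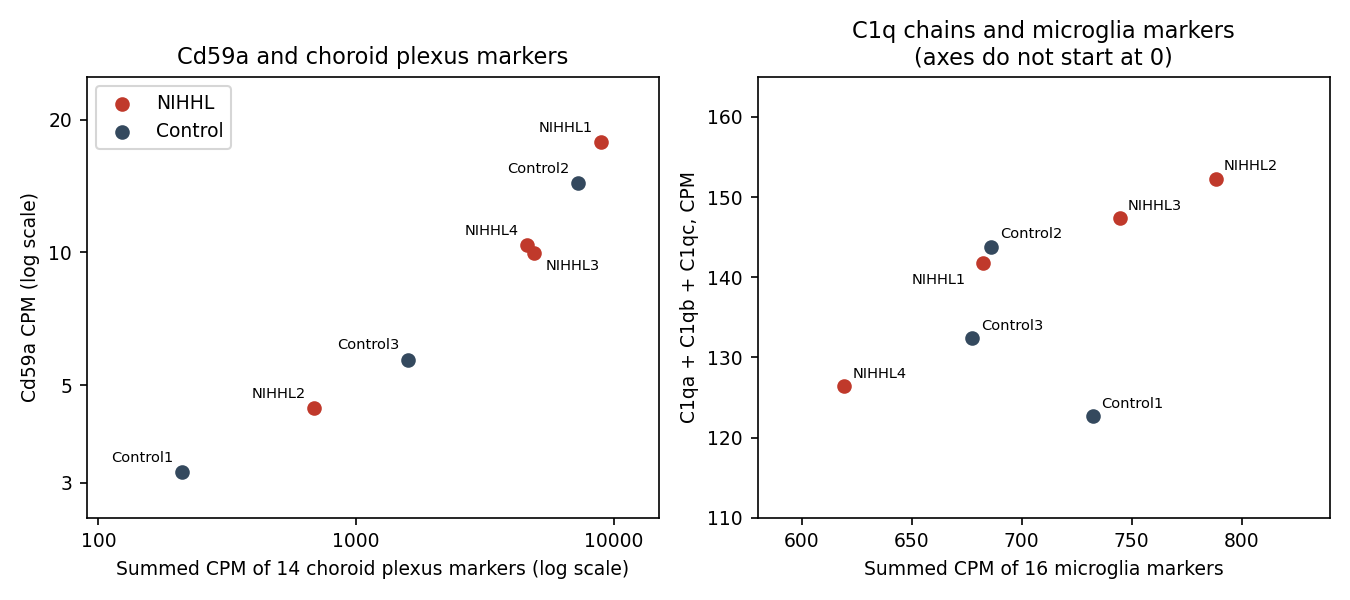
Left, Cd59a (y axis, CPM, log scale) against the summed CPM of 14 choroid plexus markers (x axis, log scale); right, summed CPM of C1qa, C1qb and C1qc (y axis) against the summed CPM of 16 microglia markers (x axis), neither axis starting at 0. Each point is a library, red for NIHHL and dark for Control; Cd59a climbs with the choroid plexus markers in both groups (r = 0.976), and Control replicate 1 has the lowest C1q sum, 122.7 CPM.

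Other complement genes were taken from a list of 55, of which 32 passed the low-count filter. None was called in either direction by edgeR's quasi-likelihood test over all genes; 3 of the 32 had an unadjusted p under 0.05, beside 3.63% of all genes, and none was called by DESeq2 or limma-voom. Of the 32, 25 had a log2 fold change above 0 and 7 below, beside 49.9% of all genes above 0, with a median of 0.07 beside -0.00045 over all genes. Clu, Cfb and C4bp were the 3 with an unadjusted p under 0.05.

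Among the components, Cfb, factor B of the alternative pathway that amplifies C3 cleavage, was at 0.552, 0.575, 0.385 and 1.06 CPM in NIHHL against 0.405, 0.336 and 0.142 CPM in Control. NIHHL replicate 4 was highest, as for C3, and the groups overlapped through NIHHL replicate 3. Its log2 fold change was 1.14 (SE 0.51, adjusted p = 0.996 by edgeR). The deposited counts of Cfb were low, at 12, 10, 7 and 18 in NIHHL and 6, 8 and 3 in Control, which limits this value. C8g, a subunit of the terminal component C8, had a log2 fold change of -0.34 (SE 0.42), and Colec11, a collectin of the lectin pathway, had one of -0.24 (SE 0.39). These too rest on few deposited counts, 4 to 17 per library for C8g and 6 to 17 for Colec11. The initiators C1rb, Mbl1 and Fcnb had 0 counts in all 7 libraries, which allows up to 0.138 to 0.177 CPM per NIHHL library and 0.126 to 0.202 CPM per Control library at 3 counts.

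Among the regulators, Clu (clusterin), a secreted chaperone that also binds the terminal complex, was the most abundant, at 1243, 1108, 1204 and 1036 CPM in NIHHL against 974, 1034 and 1005 CPM in Control. NIHHL lay above Control without overlap, though replicate 4 of NIHHL and replicate 2 of Control nearly met. The log2 fold change was 0.19 (SE 0.07, adjusted p = 0.996 by edgeR). C4bp, which binds C4b protein, showed the opposite order, at 0.736, 0.690, 0.496 and 0.885 CPM in NIHHL against 0.944, 1.72 and 1.13 CPM in Control. Its log2 fold change was -0.87 (SE 0.33, adjusted p = 0.996 by edgeR), and NIHHL below Control without overlap was seen in 2.37% of all genes. The deposited counts of C4bp were low, at 16, 12, 9 and 15 in NIHHL and 14, 41 and 24 in Control. Without Control replicate 2 its log2 fold change was -0.57.

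Cd59b, the near copy of Cd59a, was at 0.672 ± 0.304 CPM in NIHHL and 0.375 ± 0.172 CPM in Control (mean ± SD, log2 fold change 0.78, SE 0.49), and its counts too carry decimals. Vtn (vitronectin), which holds back the terminal complex and is also made by pericytes, was at 36.4 ± 3.25 CPM in NIHHL and 37.6 ± 4.98 CPM in Control. The sushi domain genes of neurons, Sez6, Sez6l, Sez6l2, Susd4 and Csmd1, had log2 fold changes between -0.03 and 0.06. Sez6l2, a complement inhibitor of the Sez6 family, was at 288.4 ± 11.4 CPM in NIHHL and 284.9 ± 4.06 CPM in Control.

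Among the receptors and binding partners, Itgb2, the beta chain of complement receptor 3 through which microglia take up C3-tagged synapses, was at 7.18, 5.40, 7.60 and 7.96 CPM in NIHHL against 6.14, 5.96 and 5.28 CPM in Control. NIHHL replicate 2 lay within the Control range and the other 3 above it, with a log2 fold change of 0.28 (SE 0.16, adjusted p = 0.996 by edgeR). Itgam, the alpha chain of the same receptor, was at 30.9 ± 1.84 CPM in NIHHL and 30.4 ± 4.7 CPM in Control (mean ± SD). Its groups overlapped, with a log2 fold change of 0.03 (SE 0.11). Lrp1, a scavenger receptor, was at 395 ± 3.99 CPM in NIHHL and 378 ± 29.9 CPM in Control, and Calr (calreticulin), which C1q can bind on cell surfaces, at 283 ± 21.1 CPM in NIHHL and 270.2 ± 14.1 CPM in Control (mean ± SD).

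**Figure D4:**
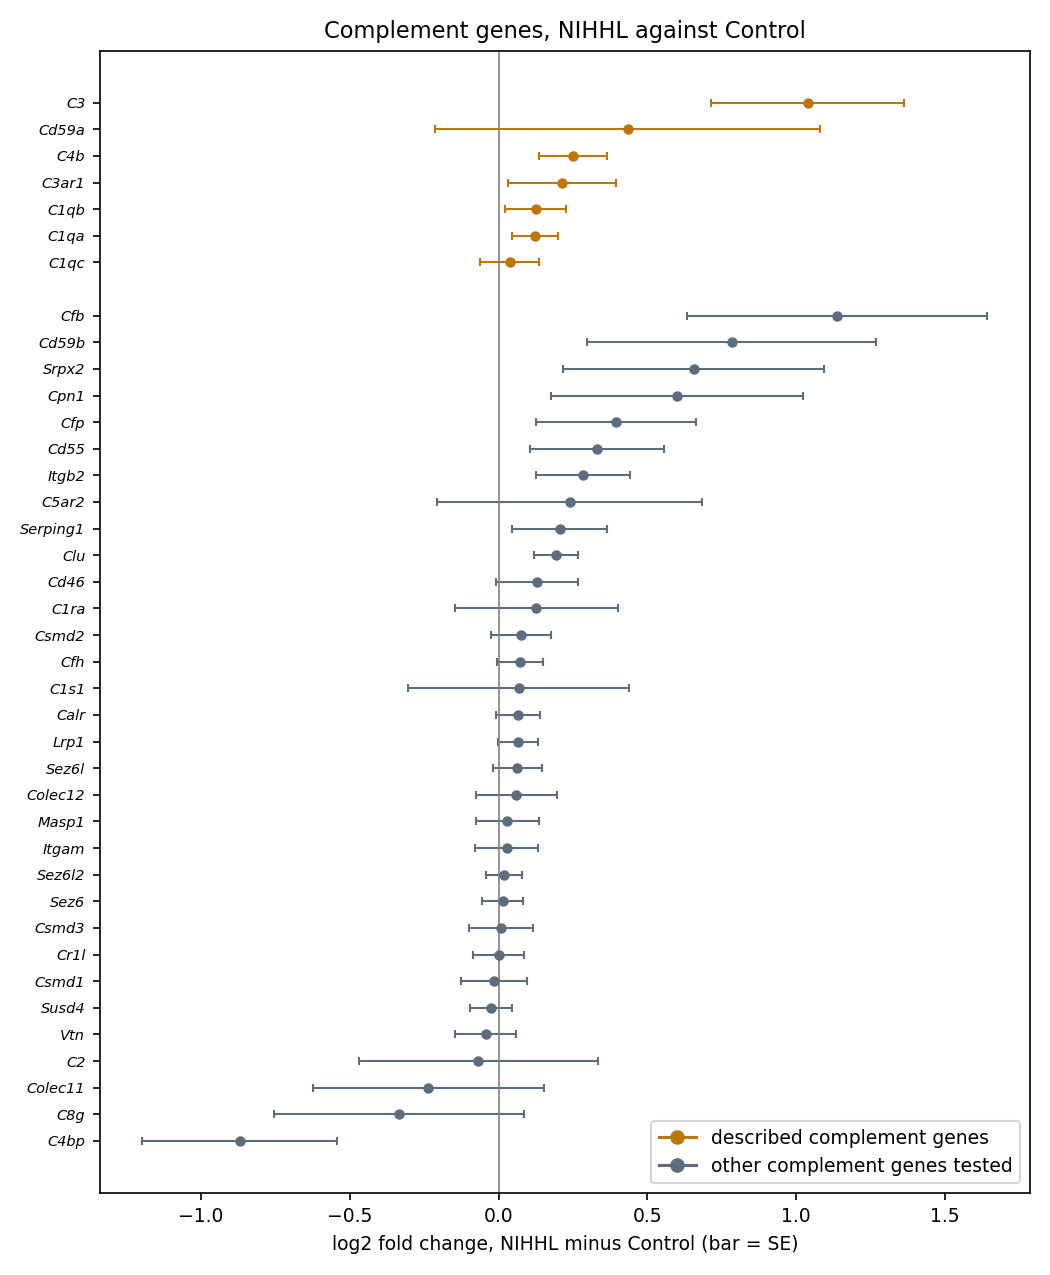
Log2 fold change, NIHHL minus Control (x axis), of the 7 tested genes of the 8 (upper group) and of the 32 other tested complement genes (lower group), with bars of 1 SE. C3 and Cfb have the highest values, 1.04 and 1.14, C4bp the lowest, -0.87, and none was called over all genes. Cfb rests on 3 to 18 deposited counts per library and C4bp on 9 to 41.

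Genes of reactive glia were counted beside the complement genes. Of 14 reactive astrocyte genes tested, 12 had a log2 fold change above 0 (median 0.07), and of 12 reactive microglia genes tested, 10 (median 0.13); 0 were called in either list. The summed levels were 202.5 to 214.2 CPM in NIHHL and 175.1 to 204.0 CPM in Control for the reactive astrocyte genes, and 4978 to 6186 CPM in NIHHL and 4828 to 6150 CPM in Control for the reactive microglia genes, so that both overlapped. In bulk tissue neither sum can be assigned to a single cell type. The 2 genes of each list with the smallest unadjusted p are given here, and they are thus its extremes. Vim (vimentin), an intermediate filament of astrocytes and ependymal cells, was at 53.1 ± 3.8 CPM in NIHHL and 43.1 ± 4.24 CPM in Control. Cxcl10, an interferon-induced chemokine, was at 0.604 ± 0.247 CPM in NIHHL and 0.376 ± 0.113 CPM in Control. Gpnmb, a glycoprotein of phagocytes, was at 6.78 ± 1.96 CPM in NIHHL and 4.52 ± 0.0771 CPM in Control, and the tetraspanin Cd9 at 77.2 ± 7.34 CPM in NIHHL and 66.3 ± 3.74 CPM in Control (mean ± SD, n = 4 and 3). The adjusted p of each of these 4 genes was 0.996 by edgeR, and NIHHL lay above Control without overlap for Vim, Gpnmb and Cd9, that is for 1 of 14 and 2 of 12 genes of the lists, beside 2.84% of all genes.

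Markers of the other cell types in the tissue were also summed. Ependymal markers were at 54.5 to 66.0 CPM in NIHHL and 29.2 to 55.0 CPM in Control. Of 7 tested, 7 had a log2 fold change above 0 and 4 had an unadjusted p under 0.05 by edgeR. Over all genes these shares were 49.9% and 3.63%. The defining Foxj1 was at 17.8 ± 1.26 CPM in NIHHL and 11.3 ± 3.84 CPM in Control. Astrocyte markers were at 5988 to 6564 CPM in NIHHL and 5351 to 6611 CPM in Control. Of 12 tested, 12 had a log2 fold change above 0 (median 0.08) and 1 had an unadjusted p under 0.05 by edgeR. NIHHL lay above Control without overlap for 2 of them, beside 2.84% of all genes. Border macrophage markers were at 10.8 to 12.5 CPM in NIHHL and 9.78 to 12.8 CPM in Control, with 1 of 6 above 0. Neutrophil and monocyte markers summed to 1.12 to 3.64 CPM in NIHHL and 0.472 to 1.89 CPM in Control, with the neutrophil gene Ly6g at 1 count in NIHHL replicate 1 and 0 in the other 6 libraries. Haemoglobin and other erythroid genes were at 209 to 594 CPM in NIHHL and 182 to 628 CPM in Control. Oligodendrocyte and neuron markers leaned opposite ways. Of 9 oligodendrocyte markers 8 had a log2 fold change above 0 (median 0.17) and 4 had an unadjusted p under 0.05 by edgeR. These counts stand beside the same 49.9% and 3.63% of all genes. The oligodendrocyte sums were 7961 to 9440 CPM in NIHHL and 6943 to 8721 CPM in Control. The myelin gene Mog was at 102.9 ± 5.31 CPM in NIHHL and 87.8 ± 9.64 CPM in Control. Of 6 neuron markers 5 had a log2 fold change below 0 (median -0.10), with sums of 7906 to 8580 CPM in NIHHL and 7760 to 9083 CPM in Control. Snap25, of the synaptic vesicle fusion machinery, was at 1215 ± 78.7 CPM in NIHHL and 1377 ± 20.3 CPM in Control. It was the 1 neuron marker of 6 that lay below Control without overlap, beside 2.37% of all genes. The groups overlapped for Rbfox3 and Syt1, with log2 fold changes of -0.08 and -0.12. Endothelial markers summed to 238.5 to 246.7 CPM in NIHHL and 243.3 to 271.4 CPM in Control, with 2 of 7 above 0, and mural markers to 98.4 to 112.3 CPM in NIHHL and 102.6 to 120.1 CPM in Control, with 3 of 5 above 0. No marker of these lists was called by edgeR (adjusted p of 0.996 for Mog and Snap25). The part of these cells in the values of the complement genes was not tested.

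The genes whose log2 CPM ran most nearly parallel to each of 3 complement genes over the 7 libraries were listed from 12838 genes with a mean log2 CPM above 1. For C3 they were Chuk, Retreg3, Marchf8, Atoh8 and Dnajc3, with r between 0.960 and 0.990. For C4b they were Utp15, Gcnt1, Apbb1ip, Ocel1 and 4933427D14Rik, with r between 0.942 and 0.980. For C1qa they were Ifih1, Lrrc1, Neb, Lin52 and Hhatl, with r between 0.954 and 0.992. These are the highest of many values over few libraries and serve as a description, and none of the 15 is a complement gene.

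**Figure D5:**
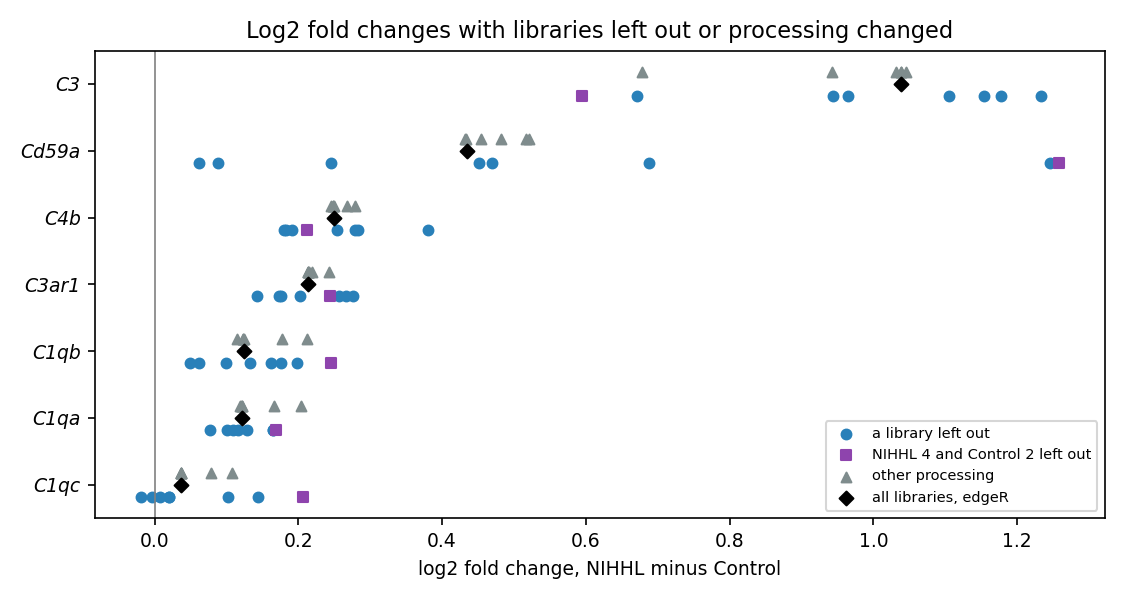
Log2 fold change, NIHHL minus Control (x axis), of the 7 tested genes with all libraries (black), with libraries left out (blue circles and purple squares) and with other processing (grey). C3 ranges from 0.60 to 1.23 and Cd59a from 0.06 to 1.26, while C1qc ranges from -0.02 to 0.21.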

How the data were processed

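Hippocampal RNA of 7 mouse samples was sequenced as described in the labels' protocols (Trizol extraction, oligo(dT) capture, NEBNext Ultra library, NovaSeq). The authors deposited an estimated count (expected count) per gene and library, not scaled to library size, and 90.7% of the values were whole. HISAT2, DESeq2, Bowtie2 (2.2.8) and StringTie (1.3.1) appear in the submitters' processing notes, with no roles. Counting step, genome build, annotation and strand setting were not given in the sources used here.

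Counts were rounded, filtered with filterByExpr (minimum count 10), scaled by TMM and fitted with edgeR 4.0.16 in R 4.3.3, with Benjamini-Hochberg adjustment over all genes and a threshold of 0.05. Each SE was taken as the absolute log2 fold change over the root of its F statistic. Log2 CPM carries a prior count of 2. DESeq2 1.42.0, limma 3.58.1 (voom) and omitted libraries were alternatives. The fit was also run on simulated counts with the same spread setting for every gene and large planted changes. The spread in these data differs between genes, so that run does not show how well small changes are found here. Exon lengths came from GENCODE M21. Intervals and floors cover counting error only. Replicate numbers were not treated as pairs in the main fit.

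The genes and lists were chosen with earlier results of these data known. Named beside the 8 genes were the 4 other complement genes per direction with the smallest p, the 8 with the highest CPM, the first 3 markers of each cell type list, the 2 genes per reactive list with the smallest p and the 5 closest profiles for C3, C4b and C1qa. Most of these markers are given within the sum of their list. Prox1 and Wfs1 were chosen after their values were seen, and C4a, Itgam, C1rb, Mbl1 and Fcnb were named beside results they bear on.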

Additional observations from a re-analysis of the deposited data

Results flagged for a closer look

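A sample that stood apart from the other 3 of its group was looked for in 37 sets of 4 NIHHL values, by Dixon's critical value of 0.829 for the gap to the nearest sample over the whole range. By chance about 1 in 20 sets would be marked. C3 was marked through NIHHL replicate 4 at 7.31 CPM, whose gap was 0.829 of the range and so just at the limit. C1qc was marked through the same library, which was low at 42.3 CPM with a gap of 0.88 of the range. The summed reactive astrocyte genes were marked through NIHHL replicate 3 at 214.2 CPM, with a gap of 0.923 of the range.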

How the results depend on the processing

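No complement gene was called under any of the 14 alternatives run, which changed the normalization, filter or test, removed a trend with transcript length, or left out libraries. Over all genes DESeq2 called 4 genes and the fit omitting both Control replicate 2 and NIHHL replicate 4 called 1, against 0 by edgeR with all libraries; the cause was not tested. Log2 fold changes stayed above 0 in every alternative for C1qa (0.08 to 0.20), C1qb (0.05 to 0.25), C3 (0.60 to 1.23), C3ar1 (0.14 to 0.28), C4b (0.18 to 0.38) and Cd59a (0.06 to 1.26). That of C1qc was below 0 in 2 alternatives and 0.21 omitting both libraries named above. The alternatives reuse the same libraries, and the genes were chosen with this comparison known. The steady signs are therefore a description and not separate support for a difference. The median of the other complement genes was 0.03 to 0.11 with a library left out.

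With the replicate number as a block, NIHHL replicate 4 adds nothing to the contrast: C3 was 0.68, Cd59a 0.52 and the median of the other complement genes 0.05, and 0 genes were called. Deviations of same-numbered libraries correlated at -0.448, -0.445 and 0.0612 over genes. The highest values were 0.48 for Control replicate 2 with NIHHL replicate 1 and 0.396 for Control replicate 1 with NIHHL replicate 2. These values show no likeness by number, but any difference between libraries enters them, so they cannot decide whether numbers mark a shared batch. Counts of 5 to 20 limit C5ar1.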
